A study of Homo sapiens with 6 samples.

Results

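Introns that stay in a large share of the RNA of K562 cells with a control shRNA were followed here across a knockdown of the splicing factor ZRSR2. Members were the introns that, in each of the 2 control libraries, had at least 50 boundary plus spliced reads, a retention of at least 30% and reads over a fraction of at least 0.95 of their bases. Retention is 100 times the reads across both exon-intron boundaries, divided by those reads plus 2 times the spliced reads. The rule chose 2150 of the 241593 introns in the tables (0.890%), or 1.94% of the 110743 introns with 50 reads in both control libraries. They formed 1934 loci that did not overlap each other, on 23 chromosomes and in 1267 named genes, and 108 of them lay in no gene that could be named.

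The libraries came from K562, a human leukaemia line with erythroid features, grown in culture and transduced with a first shRNA against ZRSR2 (sh1), with a second one (sh2) or with a control shRNA (Con_sh). Each of the 3 groups had 2 libraries of polyA-selected RNA, numbered by experiment, and every group had been transduced with some shRNA. Whether a group's libraries were separate cultures is not in the labels, so the p-values measure the spread between these samples, which may be technical. ZRSR2 encodes a protein that binds the 3′ splice site of the rare U12-type introns, and the series set its knockdown against the control.

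Most introns are removed within minutes of their synthesis. A minority stay in polyadenylated RNA that is kept in the nucleus and are called detained introns, well known in CLK1 and in other genes for splicing regulators, where their removal follows the activity of SR protein kinases. An intron can also appear retained for a simpler reason, when part of it is the exon of another transcript: a promoter, an alternative exon or a polyadenylation site inside it gives reads at its boundaries with no full-length intron.

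Some members are hosts of small RNAs. MicroRNA hairpins on the same strand, 9 in number, lay inside 6 members, with 15 mature sequences and 15 distinct seeds in RefSeq on GRCh38. The mature sequences are shown for 2 of these host introns because they are the products encoded within retained sequence, with the seed, bases 2 to 8, in capitals. Of the 7 sequences no 2 share a seed. The first 4 lie in an intron of GABRE, a GABA receptor subunit gene (chrX:151955861-151959838, minus strand), and the last 3 in an intron of UCKL1, a uridine kinase-like gene (chr20:63941209-63944396, minus strand).
miR-224-5p: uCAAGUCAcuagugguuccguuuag
miR-224-3p: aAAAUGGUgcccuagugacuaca
miR-452-5p: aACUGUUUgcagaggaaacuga
miR-452-3p: cUCAUCUGcaaagaaguaagug
miR-1914-5p: cCCUGUGCccggcccacuucug
miR-1914-3p: gGAGGGGUcccgcacugggagg
miR-647: gUGGCUGCacucacuuccuuc
The GABRE intron was retained at 99.1% and 95.9% in sh1 and 98.2% and 95.9% in sh2, against 99.4% and 95.4% in Con_sh. That of UCKL1 stood at 44.0% and 34.1% in sh1 and 35.5% and 32.3% in sh2, against 32.5% and 34.5% in Con_sh. In both introns the range of the knockdown libraries overlapped that of the control libraries. The GABRE reads were lopsided, with 0.83% of the control boundary reads at its 5′ end.

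A RefSeq transcription start on the same strand lay inside 87 members. In 31 of these, under 20% of the control boundary reads were at the 5′ end, so most boundary reads joined the intron to the downstream exon. Of these, 3 members are shown by their promoter window, 250 bases before to 50 after the start, since that start lies within the sequence counted as intron. VDAC2 encodes a channel of the outer mitochondrial membrane, ACADVL an enzyme of fatty acid oxidation and HDGF a growth factor. Capitals mark GGGCGG, the core letters bound by Sp1, or its complement on the other strand. The windows are chr10:75210546-75210845 (plus strand), chr17:7219688-7219987 (plus strand) and chr1:156751244-156751543 (minus strand), from RefSeq on GRCh38.
VDAC2: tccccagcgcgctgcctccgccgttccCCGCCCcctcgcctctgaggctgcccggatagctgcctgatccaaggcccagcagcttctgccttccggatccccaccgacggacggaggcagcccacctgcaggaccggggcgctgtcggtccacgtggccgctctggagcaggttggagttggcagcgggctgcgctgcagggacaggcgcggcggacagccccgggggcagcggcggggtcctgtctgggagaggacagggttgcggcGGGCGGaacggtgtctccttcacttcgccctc
ACADVL: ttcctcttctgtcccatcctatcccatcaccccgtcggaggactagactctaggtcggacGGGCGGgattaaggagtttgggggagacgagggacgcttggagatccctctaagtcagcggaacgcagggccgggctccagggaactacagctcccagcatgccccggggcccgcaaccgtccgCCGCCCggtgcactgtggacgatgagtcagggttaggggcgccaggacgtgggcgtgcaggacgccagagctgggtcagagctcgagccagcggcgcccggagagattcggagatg
HDGF: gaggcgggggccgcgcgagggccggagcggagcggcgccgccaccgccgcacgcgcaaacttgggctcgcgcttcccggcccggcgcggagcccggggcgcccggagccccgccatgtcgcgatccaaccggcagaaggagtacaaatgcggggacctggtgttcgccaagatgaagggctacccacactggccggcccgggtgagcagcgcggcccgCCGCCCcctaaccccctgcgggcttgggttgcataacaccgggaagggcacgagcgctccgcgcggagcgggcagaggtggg
GGGCGG was in 15786 of the 35116 RefSeq windows of this length on either strand (44.95%), which gives the background for its presence here. Of the other motifs searched on either strand, CCAAT was in 34.6% of all windows and TATAAA in 11.5%, and neither was in these 3. The 3 were picked and do not stand for the 31: the window of NPPA, also among them, lacked GGGCGG and held TATAAA.

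At VDAC2 the 5′ boundary carried 4 and 3 reads in sh1 and 4 and 2 in sh2, against 4 and 1 in Con_sh. Its 3′ boundary carried 303 and 280 reads in sh1 and 221 and 290 in sh2, against 268 and 370 in Con_sh. The retention computed from these, 88.5% and 90.4% in sh1 and 92.6% and 93.0% in sh2, against 90.7% and 92.1% in Con_sh, rests on the 3′ boundary in every library. The ACADVL intron had 2.30% and the HDGF intron 1.77% of the control boundary reads at the 5′ end. The reverse was also seen: 93.6% of the control boundary reads of an intron of FAM193B (chromosome 5, 177539148 to 177554248) were at its 5′ end, 153 bases upstream of a RefSeq start.

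Spliced reads summed over introns lay between 82986327 and 101120454 per library and boundary reads between 4387311 and 5199693. ZRSR2 itself had 0.880 and 1.5 spliced reads per 1000000 in sh1 and 1.03 and 1.59 in sh2, against 2.99 and 2.74 in Con_sh, lower in every knockdown library. All 10 K562 markers listed, among them the globins HBG1, HBG2 and HBZ and the factor GATA1, exceeded 1 spliced read per 1000000, and 3 of 11 markers of other cell types did: EPCAM (13.5 to 18.4), CD3D (5.13 to 20.5) and CD3E (0.181 to 1.88). The replicate 1 library of sh2 stood apart in its globins, with HBZ at 1416 spliced reads per 1000000, against 323 in its replicate and 146 to 437 elsewhere. In 9 members the spliced reads of 1 library were at least 5-fold, and at least 30 reads, above those of each other library: 7 in sh2 replicate 1, among them 5 introns of NT5DC4, and 2, both of RPS2, in Con_sh replicate 2. In bulk RNA fewer cells with an RNA and less of it per cell cannot be told apart.

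Members were shorter than other introns and their reads were more evenly split between their ends. Length had a median of 617 nt and quartiles of 245 and 1675.5 nt, against 1468 nt and quartiles of 466 and 3924 nt for the 108593 other introns with 50 reads in both control libraries, and 433 (20.1%) were under 200 nt, against 13.4% of the others. Gaps under 30 nt, the shortest being 1 nt long, made up 6 of the members and stay in the counts. The 5′ end held 20% to 80% of the control boundary reads in 1769 members (82.3%), against 55.3% of the other introns. The other introns had few boundary reads, with a median of 8 per control library against 142.5 for the members. The shares of the other introns therefore scatter more by counting alone. The rule also set a coverage limit on the members that the other introns did not have to meet. The differences in length and in the split of reads may thus come partly from the rule, which was not tested. Protein-coding genes held 1694 members, lncRNA genes 174 (8.09%, against 1.98% of the other introns) and pseudogenes 167 (7.77%, against 1.98%). A gene on the opposite strand overlapped 214 members (9.95%, against 5.39%), and since the strand setting of the counting is not given in the sources used here, reads of the 2 genes cannot be told apart there.

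The members could be sorted into 3 kinds by what else is annotated at the place. For 518 members (24.1%) another intron of the same strand overlapped the member and had more spliced reads in the control, in 516 of them lying inside the member. Of the 518, 347 shared each of their ends with such an intron, as a member that stretches over an included exon would. For the rest of the 518 an exon inside the member was not shown. A start site lay inside 87 members, 70 of which also belonged to those 518. The remaining 1615 members had neither. Their median length was 399 nt, and 87.7% of them had 20% to 80% of their reads at the 5′ end, against 66.0% of the 518 and 50.6% of the 87.

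**Figure D1:**
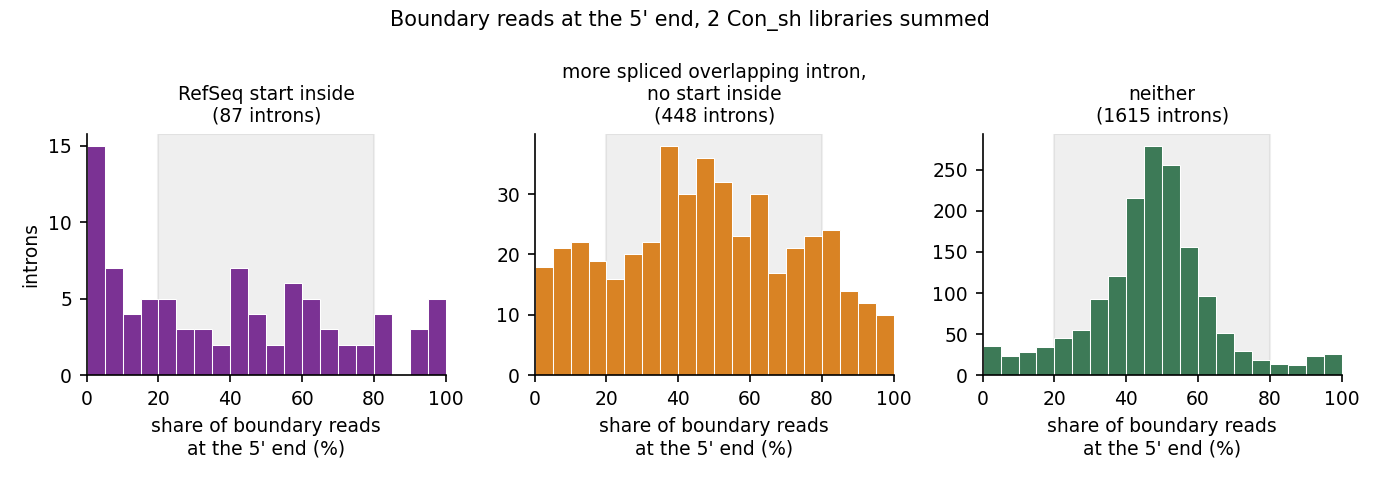
Share of control boundary reads at the 5′ end of each member, in percent, with both Con_sh libraries summed; bars count introns in steps of 5 points. Of the members with a start inside, 31 of 87 lie under 20%, while 1417 of the 1615 members with neither feature lie within the grey zone from 20% to 80%.

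Members were also placed by their order and their neighbours within genes. Counted over 5904 genes with at least 5 measured introns that overlap no other, 11.7% of 899 members were the first measured intron, against 8.04% of the 72149 other introns, and 11.6% were the last, against 8.04%. The intron upstream of a member had a median control retention of 16.9%, and the one downstream 15.5%, where the neighbours of other introns stood at 1.08% and 1.13%. The upstream neighbour was itself a member for 250 of 794 (31.5%) and below 5% for 249. Genes mostly held 1 locus (964 of 1267), while 303 held at least 2 and 56 at least 4.

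CLK1, the kinase that phosphorylates SR proteins, is a well-known case. Its 3 members were the introns on either side of an alternative exon and the intron spanning both, while its other 10 measured introns had control means from 0.580% to 6.63%. The downstream one (chromosome 2, 200859747 to 200860124) was retained at 48.1% and 41.8% in sh1 and 54.3% and 42.8% in sh2, against 42.6% and 43.0% in Con_sh. The upstream one (200860216 to 200861237) stood at 41.4% and 34.9% in sh1 and 50.1% and 35.4% in sh2, against 36.3% and 34.2% in Con_sh. Replicate 1 of each knockdown was above both control libraries in both introns, and replicate 2 lay within 2 points of a control library.

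**Figure D2:**
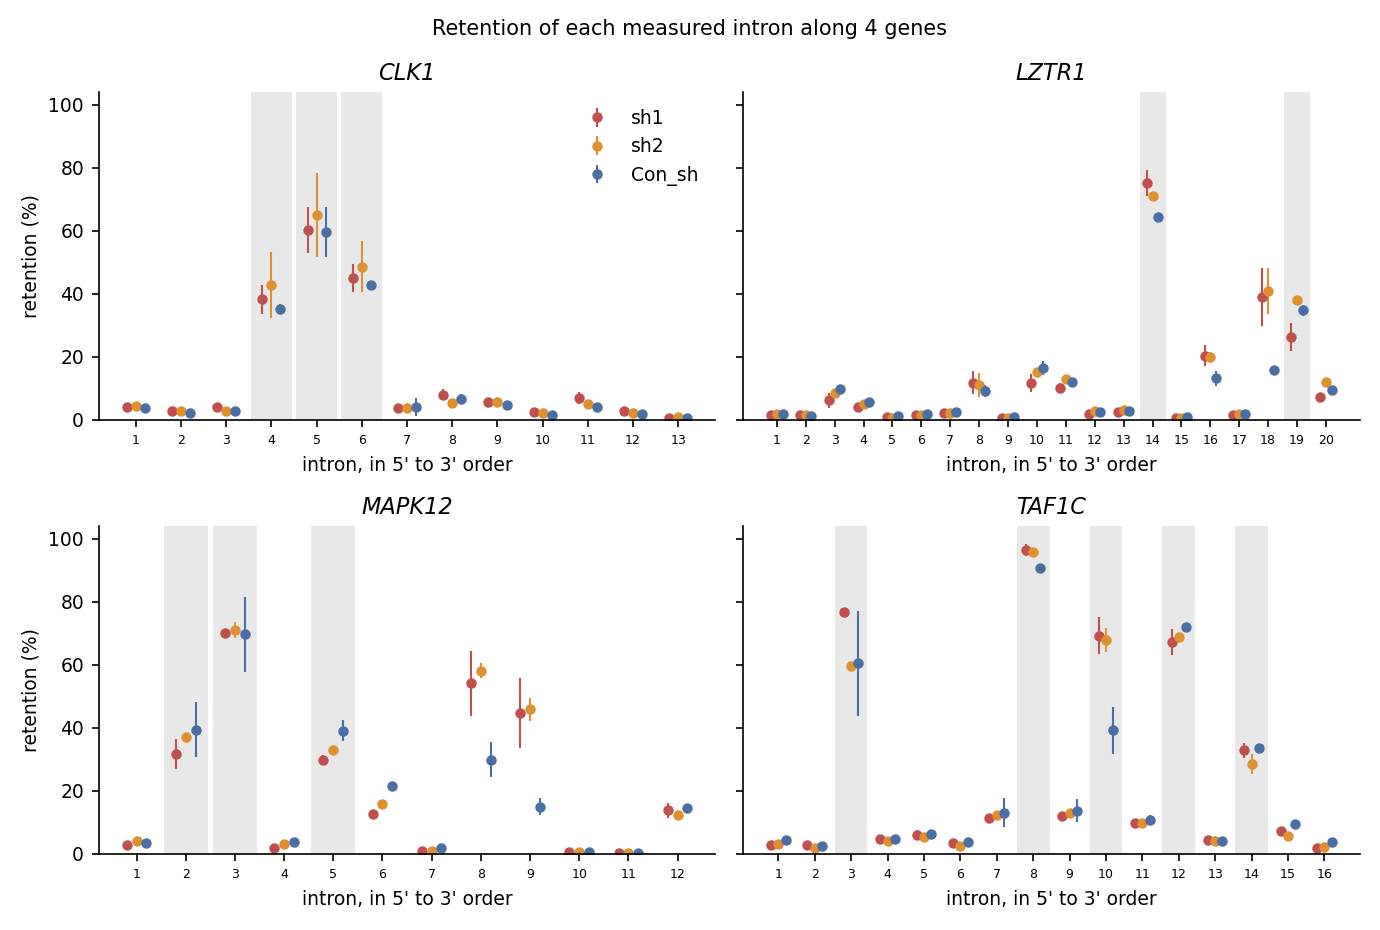
Retention in percent of each measured intron of CLK1, LZTR1, MAPK12 and TAF1C in 5′ to 3′ order, for sh1, sh2 and Con_sh from left to right; points are means and bars the SD of 2 libraries, and grey columns mark members. Introns that overlap each other each have a place. In MAPK12 the 2 introns with the largest difference above Con_sh are not members.

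The median over the 2150 introns was 53.1% and 49.0% in sh1 and 53.6% and 52.3% in sh2, against 52.4% and 48.6% in Con_sh. The group means of these medians were 51.0% ± 2.89 in sh1 and 52.9% ± 0.908 in sh2, against 50.5% ± 2.70 in Con_sh (SD, n = 2 each). Replicate 1 was above replicate 2 in each group, and the sh1 and sh2 medians were each above the Con_sh median of the same experiment number. The other introns had medians of 1.30% and 1.11% in sh1 and 1.30% and 1.35% in sh2, against 1.09% and 1.23% in Con_sh. Because control values chose the members, no test was made of these levels, and a fall is favoured by the choice itself. With members chosen on Con_sh replicate 1 alone, the medians were 43.8% in sh1 and 46.4% in sh2, against 41.3% in Con_sh replicate 2, which did not choose them. With members chosen on Con_sh replicate 2 alone, they were 48.3% in sh1 and 50.6% in sh2, against 50% in Con_sh replicate 1. The sh1 median was thus above the control median under one choice and below it under the other. The sh2 median was above it under both, the second time narrowly. The sh1 and sh2 values here are means over both replicates, while the control value is 1 library, so experiment numbers are not matched. Since replicate 1 was the higher one in each group, the change of side cannot be told apart from the experiment number.

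**Figure D3:**
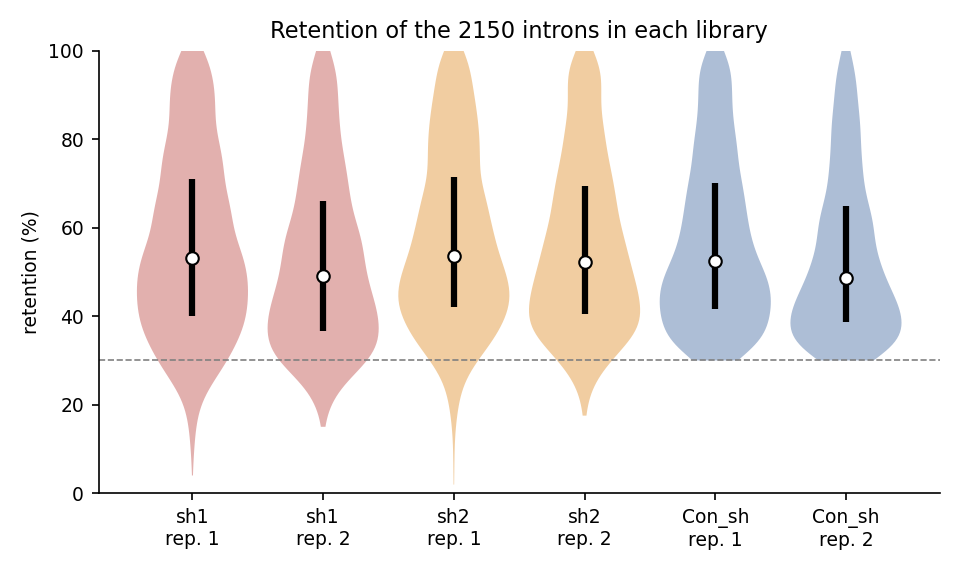
Retention in percent of the 2150 members in each library, sh1, sh2 and Con_sh from left to right; the width shows how many introns lie at a level, circles are medians, black bars the interquartile range and the dashed line the 30% limit, which cuts off the Con_sh shapes by construction. Medians lie between 48.6% and 53.6%.

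A member differed by a median of 0.45 points between the mean of the 4 knockdown libraries and the mean of the 2 control libraries, with 1144 higher and 1005 lower. The difference was within 10 points for 1870 members (87.0%), at least 10 points up for 146 and at least 10 points down for 134. All 4 knockdown libraries lay above both control libraries in 154 members and below both in 153, where 7.65% and 4.19% of all introns with 50 reads in both control libraries did so. Nothing is read from these counts, since the rule used the control values. Within each group replicate 1 exceeded replicate 2 by a median of 2.97 points in sh1, 1.24 in sh2 and 2.64 in Con_sh, and was the higher one in 1376, 1208 and 1382 members. Over the 6 libraries the range of a member had a median of 16.4 points (interquartile range 10.9 to 23.4), and 1786 members (83.1%) were at 30% or more in all of them.

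The kinds of member had different medians. The 518 members overlapped by a more spliced intron had a median difference of 2.06 points, with 331 above the control and 187 below, and the 87 with a start inside 2.34 points, with 54 above and 33 below. The 1615 with neither had −0.02 points, with 801 above and 813 below. Over the other introns with 50 reads the median was 0.07 points. The difference between kinds was not tested.

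**Figure D4:**
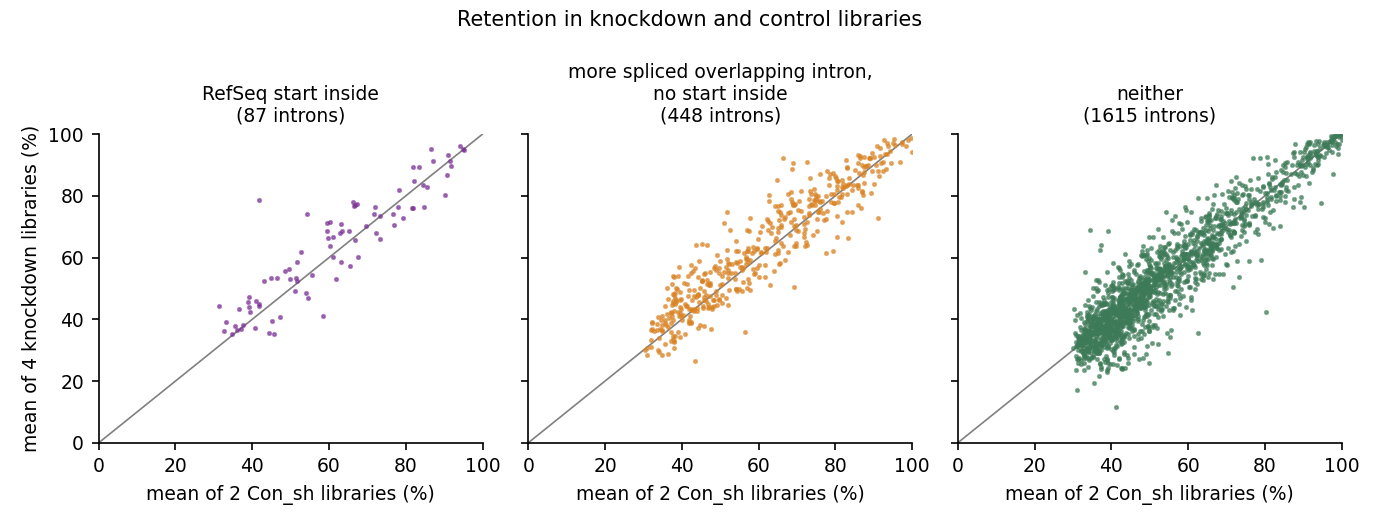
Mean retention in percent over the 4 knockdown libraries (vertical) and over the 2 Con_sh libraries (horizontal) for each member, split by kind; the line marks equal values. Most points follow the line in the 3 panels, and more points of the middle panel lie above it than below.

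The same rule applied to the knockdown groups found mostly members. In sh1 it chose 2219 introns, of which 1712 were members, or 77.2% of that list and 79.6% of the members. In sh2 it chose 2507, of which 1832 were members (73.1% of that list and 85.2% of the members). All 3 groups chose 1593 introns (74.1% of the members). The members nearest to the limits show what the rule leaves out. DNASE1 (30% in Con_sh replicate 1) and GPS1 (30.003% in Con_sh replicate 2) were just inside the retention limit, and DYNLL1 (29.98%) and ACAP3 (29.96%) just outside. Of the introns that failed a single limit, 34892 failed on retention, 948 on reads and 591 on coverage. RNF121 and APBB3 entered with 50 reads in Con_sh replicate 1, and LOC727751 and GSDMB missed with 49 in replicate 2. At the coverage limit SETD1A (0.951) and WASIR1 (0.952) were just inside and 2 introns without a gene name (0.9499 each) just outside.

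Among loci with a mean of at least 200 reads per library, the 10 with the highest control retention included both coding and non-coding genes. ZRANB2-AS1, a lncRNA, had 99.5% and 99.0% in sh1 and 100% and 99.4% in sh2, against 100% and 99.5% in Con_sh. SNHG25, a lncRNA whose intron at chromosome 17, 64146001 to 64146229 holds SNORD104, had 95.2% and 97.9% in sh1 and 92.7% and 96.4% in sh2, against 99.0% and 98.8% in Con_sh, each knockdown library below both control libraries. The others included NOL6, ITGAE, CCT2, GABRE, VIPR2 and 2 places on chromosome 7 without a gene name, 6751602 to 6753021 and 29650408 to 29650717, with control means from 97.4% to 99.3% in those named. In 4 of the 10 the reads were nearly all at the 3′ end, as 5′ shares of 2.84% in ZRANB2-AS1, 0.54% in NOL6, 1.51% in ITGAE and 0.83% in GABRE show.

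CUEDC1, a gene for a ubiquitin-binding domain protein, had the largest among loci with a mean of at least 100 reads per library: its intron at chromosome 17, 57866545 to 57867356 was retained at 78.2% and 62.3% in sh1 and 71.5% and 63.5% in sh2, against 32.9% and 36.1% in Con_sh. TAF1C, a subunit of the RNA polymerase I selectivity factor, came next, with 73.3% and 65.0% in sh1 and 70.5% and 65.1% in sh2, against 44.5% and 33.9% in Con_sh (chromosome 16, 84182059 to 84182201). In both introns the groups were far apart. The other 4 members of TAF1C differed by less: the one at 84181464 to 84181591 stood at 64.3% and 70.1% in sh1 and 68.2% and 69.8% in sh2, against 71.5% and 72.5% in Con_sh, and the one at 84180345 to 84181042 at 34.5% and 31.2% in sh1 and 30.7% and 26.4% in sh2, against 34.2% and 33.1% in Con_sh.

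TEPSIN, whose product binds the AP-4 adaptor complex, had 79.8% and 73.6% in sh1 and 78.6% and 67.1% in sh2, against 45.8% and 62.8% in Con_sh (chromosome 17, 81237460 to 81238985). RACK1, a ribosome-bound scaffold protein, had a member that spans exons and holds SNORD96A (chromosome 5, 181239583 to 181242169), at 91.2% and 90.8% in sh1 and 86.5% and 72.5% in sh2, against 61.8% and 67.9% in Con_sh. In these introns too each knockdown library was above both control libraries. EIF3K of translation initiation (22.8 points), the pseudogene LOC107985532 (22.2), VPS16 of endosomal tethering (18.5), LPIN3 (17.9) and RNF215 (17.7) complete the list, with RNF215 and LPIN3 overlapping between groups. RPS2, a protein of the small ribosomal subunit, is on it by 1 library: its intron at chromosome 16, 1962657 to 1963148 had 91.2% and 87.8% in sh1 and 88.3% and 87.0% in sh2, against 92.4% and 44.8% in Con_sh, where the low library had 1392 spliced reads and the other 5 had 66 to 133. RPS2 has near-identical copies elsewhere in the genome, so its counts are uncertain.

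The largest differences below the control were led by TUBB1, the platelet beta-tubulin: its intron at chromosome 20, 59023601 to 59023704 had 9.0% and 15.0% in sh1 and 4.12% and 18.7% in sh2, against 50% and 32.2% in Con_sh. LINC01029, a lncRNA, had 19.4% and 20.3% in sh1 and 30.5% and 26.4% in sh2, against 48.5% and 36.3% in Con_sh. RMP64 had 52.3% and 54.7% in sh1 and 46.3% and 49.0% in sh2, against 65.2% and 73.2% in Con_sh. The groups did not overlap in these 3 genes. By size, ACBD6 (−21.2 points), RHPN1 (−20.3), CCDC88B (−19.96) and MST1 (−18.9) came after TUBB1 and before RMP64 (−18.6) and LINC01029 (−18.3). NT5DC4 (−18.3), GJA9-MYCBP (−17.5) and GORASP1 (−17.4) were the last of the 10. The control libraries of GJA9-MYCBP read 37.5% and 79.3%, a wider gap than that between the groups. MST1 has near-identical copies and ACBD6 lies under a gene of the opposite strand, so both assignments are uncertain, and the intron of NT5DC4 is one whose spliced reads jumped in sh2 replicate 1.

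**Figure D5:**
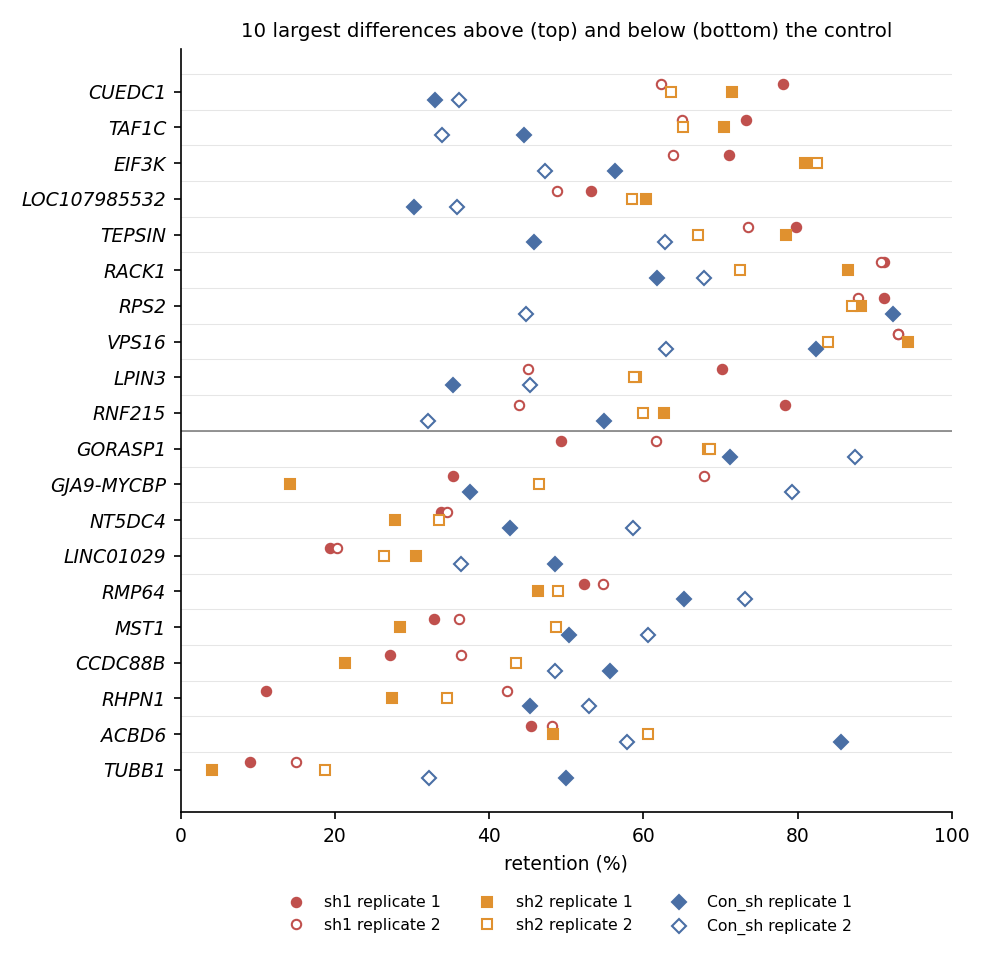
Retention in percent in each library for the 10 loci with the largest difference above the control and the 10 with the largest below it, among those with a mean of at least 100 reads per library; filled marks are replicate 1 and open marks replicate 2 of sh1 (circles), sh2 (squares) and Con_sh (diamonds). In CUEDC1 and TAF1C the 4 knockdown marks lie between 62.3% and 78.2% and the control marks between 32.9% and 44.5%; in RPS2 and GJA9-MYCBP the 2 control marks lie far apart.

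In the edgeR fit over all 134078 introns with a mean of at least 20 reads, 3 members were called more retained over both shRNAs (TAF1C, the second RPS2 intron at 1962271 to 1962735, and NAA60, an N-terminal acetyltransferase gene) and 1 less retained (TUBB1), at an adjusted p of 0.05. The fit called 0.33% of all introns more retained and 0.0209% less retained. The contrast uses the control values that chose the members, so nothing is read from these counts. In the fit blocked on replicate they were 8 and 3. They were 0 and 1 without Con_sh replicate 2, 1 and 0 without sh2 replicate 1, 5 and 1 without sh1 replicate 2, and without sh1 replicate 1, sh2 replicate 2 or Con_sh replicate 1 the less retained were 0, 2 and 0. Without members whose spliced reads jumped in 1 library, an alternative chosen after seeing the data, they were 2 and 1.

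The sh1 libraries against the sh2 libraries gave a test on values that the rule had not used. The members were retained slightly less in sh1, by a median of 2.13 points, with 785 higher and 1364 lower in sh1, while replicates of sh1 differed by a median of 2.97 points. On the log2 scale the median difference was −0.155 over the members and −0.143 over all introns tested. The shift was thus not particular to the members. All 2150 members were tested, and the edgeR quasi-likelihood test called 1 of them more retained in sh1 and 0 less retained, where it called 0.0246% and 0.0097% of all introns. Without adjustment 48 members (2.23%) had a p under 0.05, against 3.83% of all introns. In the fit blocked on replicate 3 members were called. DESeq2 called 0 members and 5 of all introns. On simulated counts the edgeR test recovered 40.5% of 4-fold changes, so few calls do not show that few introns differ.

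The member called was an intron of LOC102723728 (chromosome 16, 18424394 to 18426629, minus strand). It was retained at 55.3% and 47.3% in sh1 and 1.94% and 22.8% in sh2, against 47.9% and 37.2% in Con_sh, so the sh1 and Con_sh libraries were alike and the sh2 libraries low. The difference between sh1 and sh2 was 4.06 on the log2 scale (SE 0.695, edgeR adjusted p = 6.6e-05, over alternatives 2.4e-08 to 1). The boundary reads were 57 and 52 in sh1 and 49 and 26 in sh2, against 35 and 32 in Con_sh. The spliced reads were 23 and 29 in sh1 and 1237 and 44 in sh2, against 19 and 27 in Con_sh. The call rests on the 1237 spliced reads of sh2 replicate 1: without that library the difference was 1.83 with an edgeR adjusted p of 1.

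The split of boundary reads between the ends was a second measure that the rule had not used. Of 38666 introns with a mean of at least 20 boundary reads, 2148 of them members, the edgeR test of both shRNAs against the control called 4 (0.0103%), 1 of them a member. In the fit blocked on replicate 16 introns were called, 1 of them a member. For sh1 against sh2 it called 0 introns (0%), with an unadjusted p under 0.05 for 98 members and 1569 introns, and DESeq2 called 1 intron and 0 members. The member called lay in POLR1C, a subunit shared by RNA polymerases I and III (chromosome 6, 43521049 to 43529248, plus strand), and spans other spliced introns.

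In POLR1C the 5′ boundary had 84 and 89 reads in sh1 and 58 and 83 in sh2, against 92 and 102 in Con_sh. The 3′ boundary had 138 and 86 reads in sh1 and 126 and 102 in sh2, against 32 and 25 in Con_sh. The 5′ reads of each knockdown library were below those of both control libraries, by 3 reads at the least, and the 3′ reads were far above. The log2 difference of 5′ against 3′ reads was −2.29 (SE 0.339, edgeR adjusted p = 0.042, over alternatives 6.3e-09 to 0.47). The call was lost without sh1 replicate 1 (adjusted p = 0.18), sh2 replicate 1 (0.13), Con_sh replicate 1 (0.47) or Con_sh replicate 2 (0.42). Retention itself, 86.0% and 83.7% in sh1 and 78.6% and 94.9% in sh2, against 88.6% and 71.8% in Con_sh, overlapped between the groups.

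The other introns in the genes of the members could be tested against the control, since the rule did not choose them. Of 11964 that overlapped no member, the edgeR test called 40 more retained in the knockdown (0.334%), in 31 genes, and 4 less retained, next to 0.33% and 0.0209% of all introns. The median log2 difference was 0.03, and 0.09 over all introns tested. Without Con_sh replicate 2 the counts were 17 and 2, without sh2 replicate 1 they were 26 and 1, without Con_sh replicate 1 they were 23 and 2, and in the fit blocked on replicate 12 were less retained. Where the smaller boundary count was doubled in place of the sum, 5 and 0 were called.

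Several of the introns called more retained had a low level in the control, in a gene whose member was high in every group. In CCNT2, a cyclin of the elongation factor P-TEFb, the intron at chromosome 2, 134919013 to 134919809 had 52.6% and 28.1% in sh1 and 45.4% and 26.8% in sh2, against 3.01% and 1.71% in Con_sh (log2 4.67, SE 0.46, edgeR adjusted p = 5.2e-20). Its member, at 134946147 to 134947735, had 41.7% and 43.1% in sh1 and 48.6% and 50.6% in sh2, against 56.5% and 52.7% in Con_sh, so the member was lower in each knockdown library. In CDC45, a helicase component of DNA replication, the intron at chromosome 22, 19505482 to 19507385 had 45.3% and 16.7% in sh1 and 44.9% and 21.4% in sh2, against 6.22% and 4.26% in Con_sh (edgeR adjusted p = 2.1e-17). The CDC45 member (19479572 to 19479825) had 53.8% and 33.3% in sh1 and 44.9% and 52.0% in sh2, against 56.4% and 45.2% in Con_sh, with overlapping groups. Both calls held when any 1 library was left out.

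MYSM1, a histone H2A deubiquitinase, had 48.3% and 24.0% in sh1 and 28.8% and 18.1% in sh2, against 2.38% and 2.34% in Con_sh, at chromosome 1, 58690418 to 58692860 (edgeR adjusted p = 3.5e-12). Its member at 58689117 to 58690225 had 29.6% and 40.2% in sh1 and 44.2% and 46.3% in sh2, against 35.3% and 38.3% in Con_sh. The called intron of MYSM1 was higher in each knockdown library, while the groups overlapped in its member.

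MAPK12, the p38 gamma kinase, shows the contrast within 1 gene. Its 2 introns called more retained are neighbours: that at chromosome 22, 50255695 to 50255809 had 52.4% and 36.8% in sh1 and 48.5% and 43.2% in sh2, against 16.9% and 13.1% in Con_sh (edgeR adjusted p = 1.6e-06), and that at 50255882 to 50256084 had 61.4% and 46.9% in sh1 and 59.8% and 56.6% in sh2, against 33.9% and 25.9% in Con_sh (0.0054, up to 0.73 with a library left out). The 3 members lie upstream. One at 50256647 to 50256934 had 28.6% and 30.9% in sh1 and 32.2% and 34.0% in sh2, against 41.5% and 36.7% in Con_sh, lower in each knockdown library. That at 50257946 to 50258242 had 28.4% and 35.0% in sh1 and 37.2% and 36.7% in sh2, against 45.6% and 33.3% in Con_sh, and that at 50257194 to 50258242 had 69.5% and 70.7% in sh1 and 72.8% and 69.3% in sh2, against 78.1% and 61.3% in Con_sh. Both overlapped between the groups.

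LZTR1, a substrate adaptor of a ubiquitin ligase for RAS proteins, had its called intron between the members. That intron (chromosome 22, 20996113 to 20996695) had 45.4% and 32.4% in sh1 and 45.9% and 35.7% in sh2, against 16.7% and 15.1% in Con_sh (edgeR adjusted p = 5.2e-05, up to 0.057 with a library left out). The member upstream, at 20994270 to 20994557, had 78.0% and 72.3% in sh1 and 71.4% and 70.5% in sh2, against 64.1% and 64.5% in Con_sh. The member just downstream, at 20996802 to 20996885, had 23.2% and 29.3% in sh1 and 38.4% and 37.6% in sh2, against 35.9% and 33.5% in Con_sh: sh1 was below and sh2 above the control. With sh1 against sh2 its edgeR adjusted p was 1.

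Some members with a large difference lay beside a called intron. In CUEDC1 the neighbouring intron at 57867416 to 57868149 had 89.9% and 52.5% in sh1 and 84.0% and 67.9% in sh2, against 22.4% and 25.3% in Con_sh (edgeR adjusted p = 6.1e-04, up to 0.11 with a library left out). In TEPSIN the next intron, at 81237072 to 81237386, had 64.3% and 48.6% in sh1 and 67.5% and 54.1% in sh2, against 15.2% and 25.2% in Con_sh (edgeR adjusted p = 3.6e-05, up to 0.15). EIF3K had one at 38624198 to 38626027, on chromosome 19, with 11.6% and 3.99% in sh1 and 3.59% and 2.69% in sh2, against 0.829% and 0.913% in Con_sh (edgeR adjusted p = 2.4e-10). Over all members in named genes, 6 of the 135 that stood 10 points or more above the control were in a gene with such an intron, 3 of the 129 that stood as far below and 33 of the 1778 in between.

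The 4 introns called less retained lay in LRRC37A2 (2 introns), NPIPB3 and FAN1. LRRC37A2 and NPIPB3 belong to families of near-identical copies and their counts are uncertain. In FAN1, a nuclease of DNA repair, the intron at chromosome 15, 30920654 to 30922234 had 0.395% and 0.285% in sh1 and 0% and 0% in sh2, against 1.60% and 3.47% in Con_sh (edgeR adjusted p = 0.036).

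The share of genes with a member was 10.9% among the 11634 genes with a 50-read intron, and the lists were read against it. Of the CLK and DYRK kinases, 2 of 8 genes had one (CLK1 and CLK2), and their 4 members were all above the control mean, by a median of 3.73 points. These are not 4 separate cases, since 3 of them are the CLK1 introns at 1 place, and 53.2% of all members were above the control mean. Of the SR proteins and TRA2, 3 of 15 had one: SRSF6 stood at 33.0% and 32.1% in sh1 and 51.0% and 43.2% in sh2, against 54.2% and 35.9% in Con_sh, and SRRM2 and SREK1 differed by 5.23 and −3.97 points. Of other splicing regulators 7 of 50 did, among them ARGLU1 (66.5% and 56.8% in sh1 and 82.9% and 70.2% in sh2, against 76.2% and 63.9% in Con_sh), PNISR, CELF1, PTBP1 and U2AF1L4, the U2AF paralogue with 4 members. In ARGLU1 replicate 1 was above replicate 2 in each group.

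The proteins of the spliceosome itself had few. No gene of 30 in the major spliceosome had a member, and 1 of 14 in the minor one did, CENATAC, at 38.9% and 37.2% in sh1 and 44.2% and 52.6% in sh2, against 43.9% and 36.8% in Con_sh. Among 49 genes listed from memory for a U12-type intron, 8 had members, 12 in all with a median difference of 4.83 points. Of these 12, 7 were above the control mean, where 53.2% of all members were. Nothing is read from this, since the rule used the control values. No sequence was used to say which intron is of the U12 type. Nonsense-mediated decay and exosome genes had 1 of 27 (EXOSC1), and mRNA export and 3′ end genes 3 of 25 (CPSF1, PCF11 and THOC6). The PCF11 intron had 96.3% of its control boundary reads at the 5′ end.

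The list of other genes taken to have detained introns had members in 4 of 13, MALAT1 among them. OGT, the O-GlcNAc transferase, held 1 member among 21 measured introns, at 53.5% and 46.5% in sh1 and 64.8% and 52.5% in sh2, against 38.7% and 47.3% in Con_sh, with overlapping groups. PAN2 of deadenylation and ANKRD36 were others, and MALAT1, a nuclear lncRNA, was retained at 96.6% and 94.6% in sh1 and 96.7% and 97.4% in sh2, against 97.2% and 93.7% in Con_sh over an intron that spans a more spliced one. Chromatin genes had 6 of 45, led by TAF1C and by HDAC10, a polyamine deacetylase with 6 members. The HDAC10 member at chromosome 22, 50249169 to 50249327 had 56.8% and 51.7% in sh1 and 65.9% and 58.6% in sh2, against 68.2% and 59.5% in Con_sh. DNA repair and checkpoint genes had 8 of 38. CDK10, a cyclin-dependent kinase gene, had similar values in every library: its member at chromosome 16, 89693327 to 89693397 had 54.6% and 52.9% in sh1 and 55.4% and 53.9% in sh2, against 53.6% and 55.7% in Con_sh.

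Translation factors had members in 4 of 33 genes (EIF4A2, EIF4G3, EIF4G1 and EIF3K). EIF4A2, an RNA helicase of translation initiation, had 55.4% and 40.8% in sh1 and 47.0% and 41.7% in sh2, against 36.7% and 39.6% in Con_sh, above both control libraries in each knockdown library. Cytoplasmic ribosomal proteins had 4 of 76, each in an intron overlapped by a more spliced one (RPS2, RPLP1, RPL7 and RPL5). The aminoacyl-tRNA synthetases had 2 of 24, HARS1 (−16.9 points in the first of its 2 members) and MARS1 (16.1 points), and the proteasome and ubiquitin list 1 of 33 (PSMB5). The 2 lists of 18 and 19 genes for metabolism and the cytoskeleton had 2 (PFKL and PKM) and 1 (TUBB1).

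Red cell and haem genes had members in 7 of 43. SLC25A37, the mitochondrial iron importer mitoferrin, was nearly full at chromosome 8, 23566337 to 23568321, with 92.1% and 86.3% in sh1 and 95.6% and 86.5% in sh2, against 93.9% and 84.1% in Con_sh. UROD, a haem enzyme, had 91.8% and 90.3% in sh1 and 91.5% and 89.9% in sh2, against 92.7% and 92.2% in Con_sh, slightly lower in each knockdown library. KEL, the Kell blood group protein, had 58.8% and 49.1% in sh1 and 53.6% and 48.8% in sh2, against 53.6% and 51.6% in Con_sh. PPOX had 4 members, and EPOR was also among these genes.

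Of the listed snoRNA host non-coding genes 2 of 14 had a member (SNHG12 and SNHG17), SNHG25 being outside that list, and over all genes 20 members held a snoRNA. The intron of SNHG12 with SNORA61 (chromosome 1, 28579588 to 28579911) had 67.0% and 61.1% in sh1 and 64.2% and 65.5% in sh2, against 68.4% and 64.6% in Con_sh. NOP56, a protein of the snoRNA particle, was retained at its SNORD86 intron at 42.3% and 34.7% in sh1 and 49.7% and 44.3% in sh2, against 46.8% and 43.4% in Con_sh. TBRG4, whose member holds SNORA5A and SNORA5C, had 66.0% and 52.4% in sh1 and 41.9% and 46.1% in sh2, against 37.9% and 44.6% in Con_sh, with the sh1 libraries highest.

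In some genes every measured intron was a member. This held for 9 genes with at least 5 introns measured, that is with 50 reads in both control libraries. Where spliced reads are few, an intron reaches 50 reads only with many boundary reads. A well-spliced intron of such a gene would go unmeasured, so retention throughout is not shown. CFAP157 members had 13 to 14 spliced reads per control library, and those of SPSB3 286 to 516.5. SRPK3, a muscle kinase of SR proteins, had 13 of 13, with medians of 74.6% and 59.5% in sh1 and 69.8% and 65.9% in sh2, against 70.7% and 49.4% in Con_sh, from 14.5 to 42 spliced reads per control library. NEIL1, a glycosylase of base excision repair, had 11 of 11, with medians of 72.2% and 68.7% in sh1 and 58.0% and 64.7% in sh2, against 55.7% and 63.4% in Con_sh. MST1 had 16 of 16 and CFAP157, SPSB3 and SPDYE6 6, 5 and 7. TTN, the giant protein of muscle, had 18 members of 64 measured introns, each of them under a gene of the opposite strand, as were 8 of the SRPK3 and 5 of the SPSB3 members.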

How the data were processed

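RNA of 6 K562 libraries was analysed. Per the labels' protocols, polyA RNA was prepared with a NEBNext Ultra kit; aligner, counter and strand setting are not given in the sources used here. Per the file headers, the authors deposited raw counts of reads at both intron boundaries and of spliced reads, a covered fraction and a percent, MSI, which was recomputed from the counts (largest deviation 2.8e-14) and is called retention. Spliced reads are those whose gap spans the intron. The submitters' processing notes name hg19, but 95.6% of introns lay inside a RefSeq gene on GRCh38, against 62.6% and 62.9% after a shift of 100 kb, so GRCh38 names were used, matched by position and strand; 18 members had 2 possible genes. Positions are as deposited, with starts counted from 1.

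The members and lists were chosen with earlier results of these data known, and the U12 list was recalled from memory. edgeR 4.0.16 (R 4.3.3) tested boundary against spliced reads, or 5′ against 3′ boundary reads, as paired counts within each library, all 6 libraries sharing 1 spread. Benjamini-Hochberg adjustment was over all introns with a mean of 20 reads. The code was tested on simulated counts with 200 introns changed 4-fold in sh1. There the sh1 against sh2 test recovered 81 for retention (40.5%) and 68 for balance (34%), with 0 and 2 false calls. DESeq2 1.42.0, other scalings, filters, rules and left-out libraries were alternatives. Named loci are the 10 with the highest control retention (mean of 200 reads), the 10 largest differences above and below the control (100 reads), called members, and up to 4 loci by reads for each list; MYSM1, CCNT2, CDC45 and other non-members, VDAC2, ACADVL, HDGF, UCKL1 and further examples were chosen after their values were seen.

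The titles give experiment numbers 1 and 2 to each group. Deviations of same-numbered libraries correlated at 0.298 (sh1 and sh2), 0.188 (sh1 and Con_sh) and 0.290 (sh2 and Con_sh) over 38666 introns. The numbers were therefore taken to pair the libraries in the fit blocked on replicate, which was an alternative. The main fit had no such block, so its p-values leave the pairing out. Replicates differed by 15.6 to 31.5 times the sampling variance. At 50 reads a plain share of 50% of the reads has a 95% Wilson interval of 36.6% to 63.4%. At 194 reads, the median of the members, it is 43.0% to 57.0%. These intervals cover counting error only. Retention counts spliced reads 2 times, so its own interval differs and was not computed. A few of these loci are not reported here.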

Additional observations from a re-analysis of the deposited data

Results flagged for a closer look

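LOC102723728 differed between sh1 and sh2 by 4.06 on the log2 scale of boundary against spliced reads, past the edgeR threshold (adjusted p = 6.6e-05), where sh1 retained 55.3% and 47.3% and sh2 1.94% and 22.8%; the value rests on sh2 replicate 1.

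The downstream member of LZTR1 lay below both control libraries in both sh1 libraries and above both in both sh2 libraries, a difference between sh1 and sh2 of −11.7 points. This opposition of the 2 shRNAs was seen in the values and was not tested as such; the edgeR test of sh1 against sh2 gave an adjusted p of 1.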

How the results depend on the processing

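The alternatives gave 249 recomputed values. Of these, 126 kept their direction and side of the threshold or stayed within the limit for counts or medians. Another 112 moved, 11 became weaker and 0 reversed. Only the log2 differences of LOC102723728 and POLR1C could be labelled weaker or reversed, while counts and medians could only stay or move. For sh1 against sh2, 46 introns and 1 member were called. These were 116 and 3 in the fit with a replicate block, 87 and 3 with TMM factors, 86 and 3 with RLE factors, 9 and 0 at a mean of 50 reads, 0 and 0 at a covered fraction of 0.95 in all libraries, 0 and 0 when the lower boundary count stood for both ends, 5 and 0 with DESeq2, and 24 to 49 and 0 to 1 with a library left out.

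For the knockdown against the control, 443 introns were called more and 28 less retained. More retained were 183 at the coverage limit, 77 with the lower boundary, 194 with DESeq2 and 245 to 555 with a library left out. Less retained were 67 with the block, 53 with TMM, 62 with RLE, 14 at 50 reads, 3 at the coverage limit, 1 with the lower boundary, 7 with DESeq2 and 16 to 35 with a library left out. Of the members, 3 more retained became 8 with the block, 10 with TMM, 9 with RLE, 1 at 50 reads, 0 with the lower boundary, 1 with DESeq2 and 0 to 5 with a library left out. The 1 less retained became 3 with the block, 5 with TMM, 6 with RLE, 0 at 50 reads, at the coverage limit, with the lower boundary and with DESeq2, and 0 to 2 with a library left out.

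Of the other introns of these genes, 40 more retained became 19 at the coverage limit, 5 with the lower boundary, 19 with DESeq2 and 17 to 47 with a library left out. The 4 less retained became 12 with the block, 9 with TMM, 10 with RLE, 2 at 50 reads, 0 at the coverage limit and with the lower boundary, 1 with DESeq2 and 1 to 6 with a library left out.

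For the boundary balance of knockdown against control, 4 introns and 1 member were called, with 16 introns under the block, 0 and 0 at 50 reads, 46 and 4 with no filter, 1 and 0 with DESeq2, and 1 to 6 and 0 to 1 with a library left out. For sh1 against sh2 the 0 introns became 1 with the block, with TMM and with DESeq2, 23 with no filter and 0 to 4 with a library left out, and the 0 members became 2 with no filter.

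The median retention was 37.9% in sh1 and 40.5% in sh2, against 38.1% in Con_sh, at a limit of 20%, and at 40% it was 61.5% for sh1 and 63.5% for sh2, against 61.3% for Con_sh. That of sh2 alone moved beyond its spread to 54.4% at 20 reads, 51.8% at 100 reads, 55.8% with no coverage limit, 51.6% with the lower boundary, 49.7% for members overlapping no intron and 50.3% for those overlapped by no more spliced one, the last chosen after seeing the data. That spread is the SD of 2 library medians, 2.89 in sh1 and 0.908 in sh2, against 2.70 in Con_sh, so sh2 counts as moved at a smaller shift. For members overlapping no intron the median fell in every group, to 48.3% in sh1 and 49.7% in sh2, against 48.4% in Con_sh. With 1 library left out the medians ranged from 43.8% to 53.1% in sh1 and 46.4% to 53.6% in sh2, against 41.3% to 50% in Con_sh. The rule chose 3703 introns in sh1 and 4178 in sh2, against 3689 in Con_sh, at 20%. At 40% it chose 1434 for sh1 and 1621 for sh2, against 1408 for Con_sh, and among introns overlapping no other 1230 for sh1 and 1426 for sh2, against 1239 for Con_sh. The cause of these changes was not tested.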
